A study of Mus musculus with 35 samples.

Results

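Paclitaxel (PTX) is a chemotherapy drug that binds and stabilises microtubules. Its effect on the immune cells of mouse hind paw skin was read from bulk RNA-seq libraries of cells sorted for CD45, the leukocyte surface phosphatase encoded by Ptprc. The sort and treatment named in the labels picked out 8 of the series' 35 libraries. Of these, 4 came from PTX males, wild-type C57 mice of 8 to 16 weeks that received 2 intraperitoneal injections of 2 mg/kg a day apart, with skin taken 6 days after the last dose. The other 4 came from vehicle males, wild-type C57 mice of the same ages given the vehicle. A further 4 CD45 libraries, of vehicle females of 8 to 16 weeks, were left out of the main fit. They served mainly as another vehicle reference for RNA of non-immune cells. Their levels are also given for the mast cell, pan-immune and macrophage lists, and they entered a fit over all 12 CD45 libraries. Vehicle male libraries of tdTomato-sorted fibroblasts (Col1a2-cre-ER, 4 libraries) and keratinocytes (K5-cre-ER, 3 libraries), also of 8 to 16 weeks, served only to show in which sort a gene was most abundant. Whether the libraries of a group are different mice is not in the labels, and the p-values therefore cover the spread among these libraries only, part of which may be technical.

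Skin leukocytes are mainly macrophages, dendritic and Langerhans cells, mast cells and T cells, which sense damage and recruit other cells by releasing cytokines and chemokines. In sensory neuropathy caused by PTX, TNF, IL-1β and chemokines released near nerve endings are known to sensitise nociceptors, and PTX can act on mouse macrophages through the lipopolysaccharide receptor TLR4. TLR4, TNF and IL-1 receptors all lead to NF-κB, whose subunits switch on inflammatory genes together with their own inhibitors.

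Gene counts ranged from 13847475 to 16251636 per PTX male library, from 16076472 to 18766402 per vehicle male library and from 14437683 to 18979776 per vehicle female library. The PTX male libraries held fewer genes with at least 10 counts (7341, 8487, 8723 and 5992, mean 7636 ± 1251 SD, n = 4) than the vehicle male libraries (11029, 12872, 12654 and 12150, mean 12176 ± 822 SD, n = 4). The groups did not overlap (two-sided exact permutation test, p = 0.0286, the smallest that 4 against 4 allows), and the vehicle female libraries held 11005 to 11073. The PTX libraries also resembled each other less, with Spearman correlations between libraries of 0.689 to 0.759, against 0.824 to 0.910 among vehicle males. Of genes with a mean of 5 to 20 CPM (gene counts scaled to library size with TMM) over the 8 libraries, 44.1 to 77% were under 1 CPM in each PTX library and 2.9 to 14.6% in each vehicle male library. Of those at 20 to 100 CPM, 12.7 to 39.1% were under 1 CPM in each PTX library and 0.162 to 2.55% in each vehicle male library. This held for genes most abundant in each of the 3 sorts, and its part in the falls reported here was not tested.

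The markers of the sort were present in every library. Ptprc was at 644, 584, 813 and 452 CPM in PTX males, against 519.8, 585, 444 and 362 CPM in vehicle males. The macrophage lysozyme gene Lyz2 was at 12382, 11291, 11493 and 17549 CPM in PTX males, against 11591, 8925, 9519 and 6958 CPM in vehicle males. Cd68, a lysosomal glycoprotein gene of macrophages, was at 1111, 1522, 1477 and 1868 CPM in PTX males, against 1165, 744, 808 and 685 CPM in vehicle males. None of the 3 passed the test (log2 fold changes of 0.38 ± 0.24, 0.51 ± 0.20 and 0.81 ± 0.23 SE, edgeR adjusted p of 0.714, 0.247 and 0.072). The 14 pan-immune genes were all tested, all had positive log2 fold changes with a median of 0.52, and none passed. The median over all tested genes with a mean of 100 CPM or more was 0.41.

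RNA of other skin cells was also present, and differed between the groups. The 15 fibroblast markers together made up 0.0270 to 0.154% of gene counts in PTX males, 0.574 to 1.27% in vehicle males and 0.0111 to 0.0534% in vehicle females. Their level, as the mean of log2(CPM + 1), was 3.47 ± 0.46 in PTX males, 7.30 ± 0.44 in vehicle males and 2.69 ± 0.59 in vehicle females (SD, n = 4 each). Endothelial markers were at 0.81 in PTX males, 4.55 in vehicle males and 3.05 in vehicle females on the same scale. In bulk libraries, fewer cells of a type and less RNA per cell cannot be told apart.

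**Figure D1:**
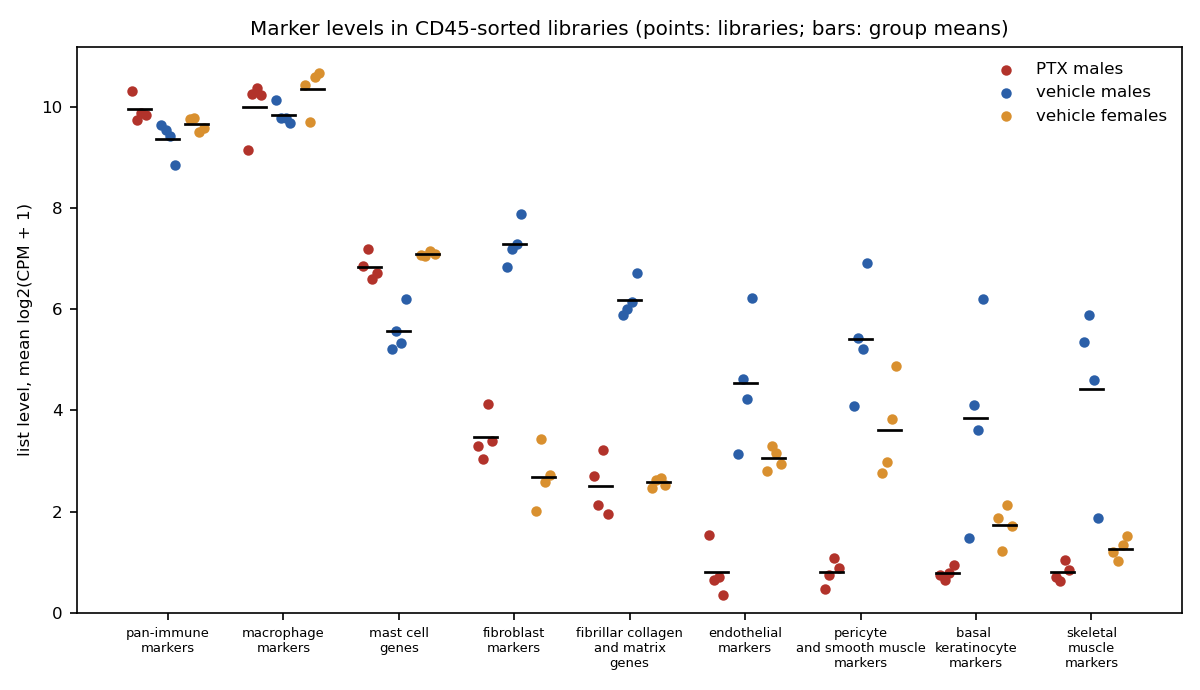
Level of 9 marker lists, as the mean log2(CPM + 1) of the list's genes, in each CD45-sorted library of PTX males, vehicle males and vehicle females; points are libraries and bars are group means. Pan-immune and macrophage lists lie at similar levels in all groups, whereas the 6 lists of non-immune cells lie lower in PTX males than in vehicle males, and the fibroblast list is also low in vehicle females (2.69, with 3.47 in PTX males).

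The genes that rose in PTX males, against vehicle males, included 2 of 19 cytokine, 5 of 16 MHC class II, 4 of 21 chaperone and 7 of 16 mast cell genes tested. Those that fell included 8 of 15 fibroblast, 9 of 13 endothelial, 2 of 6 basal keratinocyte and 3 of 8 muscle genes tested. Of 10938 genes tested, 760 passed the test (6.95%), of which 85 rose (0.777% of those tested) and 675 fell (6.17%), at an adjusted p under 0.05 (quasi-likelihood F-test of edgeR, two-sided, adjusted by Benjamini-Hochberg over all tested genes, as are all adjusted p-values here). The median log2 fold change over all tested genes was 0.14. By mean level over the 8 libraries, it ran from −1.73 under 5 CPM to 0.41 at 100 CPM or more. In 356 genes (3.25%) every PTX library lay above every vehicle library, in 1184 (10.8%) below, while 1453 genes (13.3%) were under 0.05 before adjustment of p. Among genes that passed, the groups did not overlap in 80 of the 85 rises and in all 675 falls. Statements that groups were apart therefore describe the values of such genes and add no further support. The rises were in abundant genes: among 2001 genes with a mean of at least 100 CPM, 81 rose and 26 fell, whereas among 960 genes under 5 CPM, 0 rose and 222 fell. Of the 675 genes that fell, 614 averaged under 1 CPM in PTX males and 101 had no count in any PTX library. With limma voom and quality weights in place of edgeR, 13 genes rose and 0 fell (2077 at an unadjusted p under 0.05), so that no fall described here passed in that fit.

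Genes were also placed in the sort of vehicle males in which they were most abundant. Of 3098 genes most abundant in CD45 libraries, 54 rose (1.74%) and 149 fell (4.81%), with a median log2 fold change of 0.30. These 54 made up 63.5% of all rises. The class is not made of immune genes alone: it also held Myod1, Tnnc2, Kdr, Nos3 and Cfd, of muscle, vessels and fat, all of which fell. Fibroblast libraries held the highest level of 27 genes that rose and 355 that fell, of 3927 tested, and keratinocyte libraries that of 4 that rose and 171 that fell, of 3913 tested. Several stress and inflammatory genes described here (Nr4a1, Tnfaip3, Nfkbia, Hspa1a, Jun, Cxcl10 and Ccl7) rose in the CD45 libraries although their TMM-scaled CPM was higher in vehicle male fibroblasts. These classes depended on the scaling: fibroblast genes made up 31.8% of rises with TMM and 15.3% with plain CPM. Which of the named genes would change class is not given here. When libraries were scaled over the genes most abundant in CD45 libraries, 26 genes rose and 691 fell, and the median over all genes was −0.13.

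**Figure D2:**
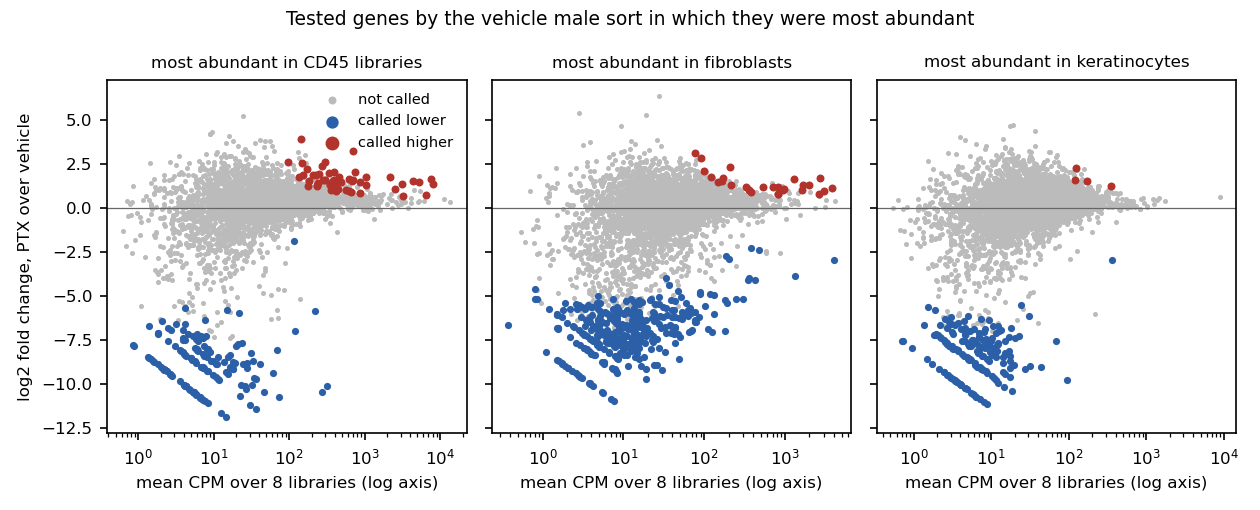
Log2 fold change (PTX males minus vehicle males) against mean CPM over the 8 libraries (log axis), in 3 panels by the vehicle male sort in which a gene was most abundant. Genes that rose lie mostly above 100 CPM and in the CD45 panel, while genes that fell are spread over all panels and reach down to the lowest levels.

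Many calls depended on single libraries. Without 1 PTX male library in turn, replicates 1 to 4, there were 34, 23, 110 and 24 rises and 104, 87, 826 and 120 falls. Without 1 vehicle male library in turn, replicates 1 to 4, there were 64, 5, 6 and 4 rises and 970, 17, 35 and 14 falls. Ccl4, Nr4a1, Tnfaip3 and Tpsab1 rose in all 8 of these fits, and 12 genes fell in all 8: Apod, Car3, Cfd, Fbln2, Fstl1, Gsn, Igfbp6, Igfbp7, Lamb2, Mmp2, Prg4 and Ptrf. Every other gene lost its call in at least 1 of these fits. For most of those described, the number of the 8 fits in which the change passed is given, often with the highest adjusted p among them, which came without vehicle male 2 or 3 unless another library is named.

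**Figure D3:**
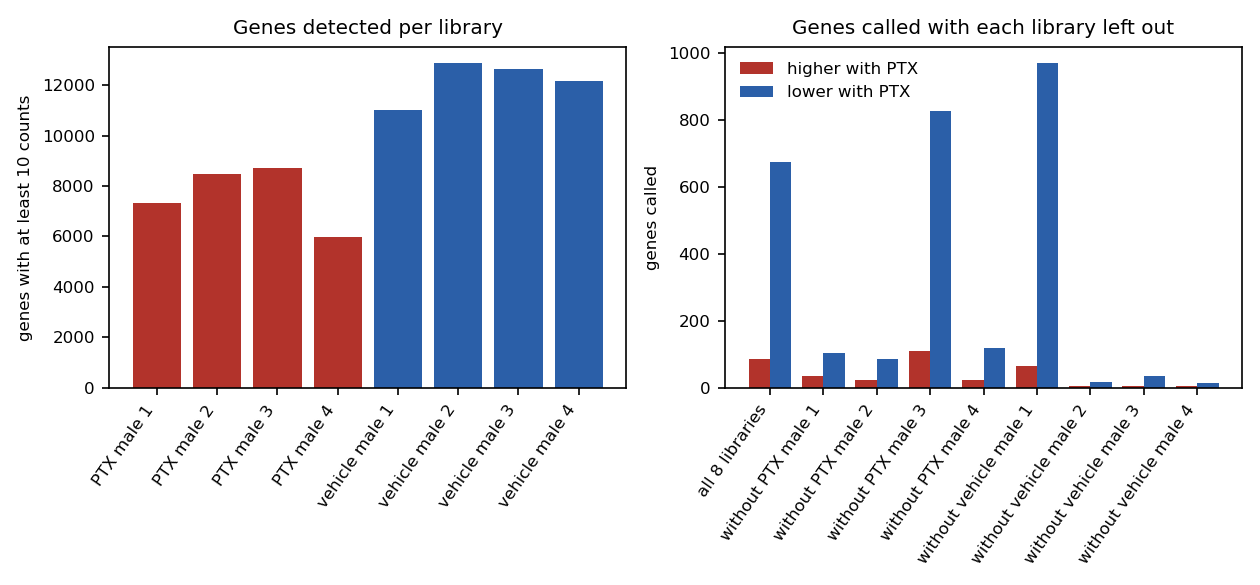
Left, genes with at least 10 counts in each library of PTX males and vehicle males; right, genes that rose and fell with all 8 libraries and with each library left out. The 4 PTX libraries (5992 to 8723 genes) lie below all 4 vehicle libraries (11029 to 12872), and the number of falls ranges from 14 to 970 when 1 library is left out.

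Chemokines were among the largest rises. Ccl4 and Ccl3 encode macrophage inflammatory proteins that attract monocytes and T cells. Ccl4 was at 1014, 1559, 1292 and 1168 CPM in PTX males, against 124, 195, 68.2 and 148 CPM in vehicle males. Every PTX library lay above every vehicle library, by a log2 fold change of 3.23 ± 0.33 (SE, adjusted p = 0.00586; passed in 8 of 8 fits). Ccl3 was at 496, 522, 626 and 528 CPM in PTX males and at 153, 170.2, 99.5 and 130.1 CPM in vehicle males (log2 fold change 1.98 ± 0.25, adjusted p = 0.00672). The groups were again apart, and 7 of 8 fits kept the call (adjusted p = 0.0534 without vehicle male 4). The monocyte attractant Ccl7 rose to 2369 ± 754 CPM in PTX males, against 977 ± 257 CPM in vehicle males (SD, n = 4 each; log2 fold change 1.28 ± 0.29, adjusted p = 0.0311; 2 of 8 fits, up to 0.0897). Ccl2, the main ligand of CCR2, was at 822, 3088, 2203 and 4352 CPM in PTX males and at 931, 1819, 1141 and 1839.8 CPM in vehicle males, so that the groups overlapped (log2 fold change 0.87 ± 0.44, adjusted p = 0.502). Of 14 CC and CX3C ligand genes tested of 16 listed, 3 rose and 0 fell, with a median log2 fold change of 0.77.

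CXC ligands changed in both directions. The interferon-inducible ligand of CXCR3, Cxcl10, was at 190.2, 353, 248 and 591 CPM in PTX males, against 77.9, 68.5, 44.7 and 83.1 CPM in vehicle males. All PTX libraries were higher (log2 fold change 2.33 ± 0.42, adjusted p = 0.0279; 4 of 8 fits). Cxcl2, a neutrophil attractant, was at 917, 965, 1347 and 1810.4 CPM in PTX males and at 425, 527, 360.5 and 539 CPM in vehicle males (log2 fold change 1.44 ± 0.26, adjusted p = 0.031; 5 of 8). Cxcl16, a membrane-bound ligand of CXCR6, averaged 592 CPM in PTX males and 224 CPM in vehicle males (log2 fold change 1.40 ± 0.24, adjusted p = 0.0229; 5 of 8). Its receptor gene Cxcr6, found on resident T and innate lymphoid cells, was at 297, 156, 166 and 48.2 CPM in PTX males, against 23.1, 26.7, 33.0 and 29.1 CPM in vehicle males. It rose as well, with all PTX libraries higher (log2 fold change 2.58 ± 0.58, adjusted p = 0.0314; 2 of 8, up to 0.09). Cxcl1, another neutrophil attractant, had a log2 fold change of 0.00 ± 0.29 (adjusted p = 0.999). Cxcl14, a chemokine of epithelium and fibroblasts, was at 0.257 to 0.871 CPM in PTX males and at 36.7 to 50.0 CPM in vehicle males, and fell (log2 fold change −6.25 ± 1.24, adjusted p = 0.0311; 3 of 8). Of 10 CXC ligand genes tested of 13 listed, 3 rose and 1 fell, with a median of 0.81 and 6 positive values. The median became 0.15 under limma voom and 1.32 with all 12 CD45 libraries in the fit. The list level was not higher in PTX males, at 5.27 ± 0.40 against 5.60 ± 0.44 in vehicle males (mean log2(CPM + 1), SD, n = 4 each). For the rises in Cxcl10, Cxcl2 and Cxcl16, the highest adjusted p was 0.0867, without vehicle male 2.

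The 2 cytokines that rose were those best known for sensitising nociceptors. Tnf was at 947, 2066, 2204 and 1256 CPM in PTX males, against 497, 573, 387 and 507 CPM in vehicle males. Il1b was at 5375, 2258, 2594 and 3178 CPM in PTX males, against 1311, 1113, 1002 and 623 CPM in vehicle males. In both genes every PTX library was above every vehicle library, with log2 fold changes of 1.72 ± 0.29 (adjusted p = 0.0229) and 1.73 ± 0.32 (adjusted p = 0.0311), each kept in 4 of 8 fits (up to 0.0867 without vehicle male 2). Il6 was at 127, 138, 30.5 and 301 CPM in PTX males and at 40.3, 104, 66.4 and 193 CPM in vehicle males (log2 fold change 0.56 ± 0.69, adjusted p = 0.999), with overlapping groups. Il4, a type 2 cytokine of mast cells and T cells, ranged most widely, with 140.2, 45.1, 0.225 and 229 CPM in PTX males and 5.65, 3.46, 5.87 and 14.8 CPM in vehicle males (adjusted p = 0.244). Of 19 cytokine genes tested of 27 listed, 2 rose and 0 fell, with a median of 1.42 and 17 positive values. The median became 0.39 under limma voom and 0.82 with the replicate number as a block, and the list level was 3.64 ± 0.24 in PTX males and 3.46 ± 0.28 in vehicle males (mean log2(CPM + 1), SD, n = 4 each). Among 24 cytokine receptor genes, only the oncostatin M receptor gene Osmr passed the test, and it fell.

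**Figure D4:**
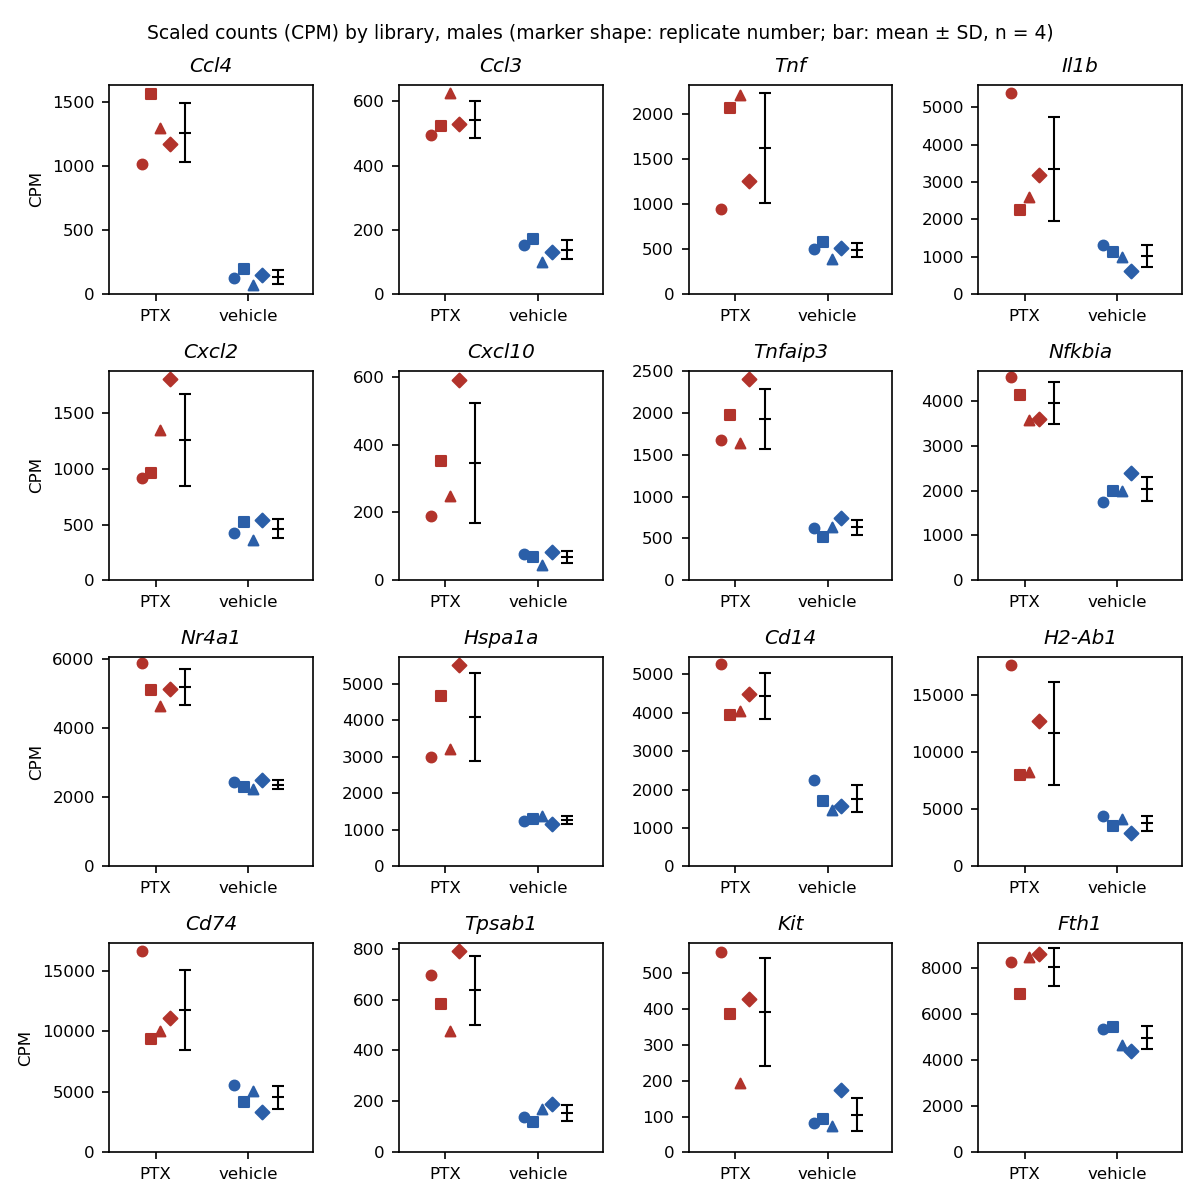
CPM of 16 genes in each PTX male and vehicle male library, with mean ± SD (n = 4 each); marker shapes give the replicate number. All 16 genes, among them Ccl4, Tnf, Tnfaip3, H2-Ab1 and Tpsab1, had passed the test. In each the 4 PTX libraries lie above the 4 vehicle libraries, as in 80 of the 85 genes that rose.

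Among NF-κB genes, 4 inhibitors and 1 subunit rose. Tnfaip3, which encodes the ubiquitin-editing inhibitor A20, was at 1678, 1975, 1648 and 2416 CPM in PTX males, against 626, 517, 639 and 743 CPM in vehicle males. The groups were far apart, and the rise passed in 8 of 8 fits (log2 fold change 1.61 ± 0.19, adjusted p = 0.00672). Nfkbia, which encodes IκBα, was at 4544, 4131, 3575 and 3593 CPM in PTX males, against 1758, 1990.3, 2000.0 and 2389 CPM in vehicle males. It rose without overlap (log2 fold change 0.96 ± 0.16, adjusted p = 0.0202; 5 of 8). Tnip3, whose product binds A20, averaged 353 CPM in PTX males and 95.9 CPM in vehicle males (log2 fold change 1.88 ± 0.31, adjusted p = 0.0202; 5 of 8), and the nuclear IκB gene Nfkbid had a log2 fold change of 0.93 ± 0.19 (adjusted p = 0.0311; 3 of 8). Of the subunits, Rel rose (log2 fold change 1.20 ± 0.24, adjusted p = 0.0311; 3 of 8). Rela, the subunit p65, was at 363, 313, 373 and 478 CPM in PTX males and at 372, 402, 327 and 409 CPM in vehicle males (log2 fold change 0.02 ± 0.22, adjusted p = 0.999). Of 19 genes tested, 5 rose and 0 fell, 17 had positive values and the median was 0.93. Of the Toll-like and C-type lectin sensing genes, 23 were tested. Cd14, the lipopolysaccharide co-receptor of TLR4, was at 5269, 3946, 4038 and 4502 CPM in PTX males and at 2259.8, 1714, 1463 and 1584 CPM in vehicle males, and it rose (log2 fold change 1.34 ± 0.18, adjusted p = 0.00954; 5 of 8, up to 0.0675). Tlr4 itself was at 0.633, 2.38, 68.5 and 0.0831 CPM in PTX males and at 26.3, 63.2, 44.2 and 30.9 CPM in vehicle males (adjusted p = 0.999), low in all but 1 PTX library. Tlr3, an endosomal sensor of double-stranded RNA, fell.

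Promoters of the inhibitors are shown because these genes are textbook NF-κB targets. RefSeq windows around the start site (build GRCm38.p6) were found for 16 of the 19 listed genes. The κB pattern, GGG and CC with any 5 bases between them on either strand, was in 19 of their 21 windows (90.5%), against 50.8% of all 32851 windows, 67.4% of the windows of tested genes and 57.7% of those of genes that rose. It was almost as frequent in windows of the AP-1 and immediate early list (84%) and the chaperone list (81.8%). For the CXC ligand, interferon-stimulated, cytokine and CC and CX3C ligand lists the shares were 70, 60, 48.4 and 40%. Capitals mark matches to the pattern. Of 2 Tnfaip3 windows, the one shown held 6 matches, some of them overlapping, and the other held 2. The Nfkbia window held 2.
Tnfaip3, chr10:19015361-19015660, minus strand: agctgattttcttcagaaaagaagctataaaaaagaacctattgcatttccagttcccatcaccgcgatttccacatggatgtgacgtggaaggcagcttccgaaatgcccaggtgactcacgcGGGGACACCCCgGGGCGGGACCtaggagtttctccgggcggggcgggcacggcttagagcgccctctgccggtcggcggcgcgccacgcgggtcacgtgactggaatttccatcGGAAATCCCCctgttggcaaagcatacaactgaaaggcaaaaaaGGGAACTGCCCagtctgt
Nfkbia, chr12:55492598-55492897, minus strand: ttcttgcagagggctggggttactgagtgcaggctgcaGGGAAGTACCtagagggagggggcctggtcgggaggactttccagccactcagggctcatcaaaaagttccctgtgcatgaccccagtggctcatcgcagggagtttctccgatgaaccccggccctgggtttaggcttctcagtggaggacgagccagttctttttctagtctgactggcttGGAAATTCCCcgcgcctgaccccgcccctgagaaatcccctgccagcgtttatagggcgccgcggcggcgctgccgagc
The Tnf window held 2 matches and the Cxcl2 window 3, while these letters were not in the Ccl3 window.

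Some immediate early genes rose, while others of the same early response did not pass the test. Nr4a1, an orphan nuclear receptor induced within minutes by inflammatory signals in macrophages, was at 5878, 5102, 4628 and 5130.5 CPM in PTX males, against 2433, 2297, 2222 and 2504 CPM in vehicle males. Both groups were tight and apart (log2 fold change 1.13 ± 0.13, adjusted p = 0.00672; 8 of 8). Jun, a subunit of AP-1, rose to 2884, 3604, 2119.6 and 2665 CPM in PTX males, against 879, 925, 1594 and 1282 CPM in vehicle males (log2 fold change 1.27 ± 0.24, adjusted p = 0.0311; 2 of 8). Its partner Fos had a log2 fold change of 0.36 ± 0.19 (adjusted p = 0.572). Egr1, a zinc finger factor of the same early response, was at 1324 ± 465 CPM in PTX males and 1772 ± 249 CPM in vehicle males (SD, n = 4 each; adjusted p = 0.689). Klf6, a zinc finger factor of macrophage activation, passed with overlapping groups (log2 fold change 0.99 ± 0.24, adjusted p = 0.036; 1 of 8, up to 0.119). Of 24 AP-1 and immediate early genes, 3 rose and 0 fell, with a median of 0.47.

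Among the 19 feedback genes, 4 rose and 0 fell, with a median of 0.99. Ppp1r15a, which directs a phosphatase to eIF2α under stress, was at 1429.6, 1433, 1079 and 1317 CPM in PTX males, against 560.4, 637, 617 and 735 CPM in vehicle males (log2 fold change 1.04 ± 0.18, adjusted p = 0.0228; 5 of 8). Rgs1 and Rgs2, which shut off signalling by chemokine and other G protein-coupled receptors, had log2 fold changes of 1.60 ± 0.30 (adjusted p = 0.0311; 4 of 8) and 1.73 ± 0.41 (adjusted p = 0.0354; 2 of 8, up to 0.116). Gadd45b, a stress-induced regulator of p38 and JNK, rose by a log2 fold change of 1.15 ± 0.27 (adjusted p = 0.0323; 1 of 8, up to 0.104). In all 4 genes the PTX libraries lay above the vehicle libraries. Dusp1, the phosphatase that switches off p38 and JNK, was at 3438 ± 897 CPM in PTX males and 2221 ± 271 CPM in vehicle males (SD, n = 4 each; adjusted p = 0.138).

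Of 21 heat shock and chaperone genes, 4 rose and 2, both of small heat shock proteins, fell. Hspa1a, the inducible HSP70, was at 2988, 4682, 3206 and 5526 CPM in PTX males, against 1246, 1294, 1392 and 1148 CPM in vehicle males. Every PTX library was above every vehicle library (log2 fold change 1.69 ± 0.22, adjusted p = 0.00686; 6 of 8, up to 0.0575 without vehicle male 4). Its near-identical copy Hspa1b was at 126, 68.1, 55.7 and 138 CPM in PTX males and at 14.3, 37.5, 21.6 and 14.0 CPM in vehicle males (log2 fold change 2.15 ± 0.69, adjusted p = 0.127). The counts leave out reads that match several places equally well, and the levels of both copies are uncertain. Hsp90ab1, the constitutive HSP90, rose to 3699, 2827, 3110.2 and 3591 CPM in PTX males, against 1636, 2105, 1966 and 2015 CPM in vehicle males (log2 fold change 0.78 ± 0.16, adjusted p = 0.0311; 3 of 8). Hspa8, which encodes the constitutive HSC70, had a log2 fold change of 0.92 ± 0.22 (adjusted p = 0.0342; 1 of 8, up to 0.142), and the inducible Hsp90aa1 one of 1.02 ± 0.26 (adjusted p = 0.0426; 0 of 8, up to 0.108). The small heat shock genes Hspb8 and Cryab, abundant in muscle and stroma, were below 1 CPM in every PTX library and at 22.5 to 84.2 CPM in the vehicle libraries (log2 fold changes −6.60 ± 1.21 and −7.48 ± 1.32, adjusted p of 0.0301 and 0.0267; 4 of 8 each). The median over the list was 0.76. None of 12 tested genes of the unfolded protein response, the stress pathway of the endoplasmic reticulum, passed (median 0.24).

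The heat shock factor pattern, GAANNTTC or TTCNNGAA on either strand, was in 12 of 22 windows (54.5%) of the 16 chaperone genes matched, against 15.1% of all windows and 14.1% of those of genes that rose. The Hspa1a window is given with its single match in capitals.
Hspa1a, chr17:34972107-34972406, minus strand: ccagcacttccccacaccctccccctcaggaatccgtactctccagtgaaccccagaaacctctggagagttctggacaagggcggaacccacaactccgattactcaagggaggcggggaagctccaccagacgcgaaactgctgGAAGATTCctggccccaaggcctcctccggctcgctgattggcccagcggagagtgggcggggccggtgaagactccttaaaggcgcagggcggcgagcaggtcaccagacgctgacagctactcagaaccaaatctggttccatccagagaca

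Of 16 genes of MHC class II presentation, 5 rose: 3 chains of the class II molecules, the invariant chain gene and H2-DMb1. H2-Ab1, the beta chain of the class II molecule I-A, was at 17626, 7968, 8248 and 12707 CPM in PTX males, against 4447, 3524, 4122 and 2919 CPM in vehicle males. Cd74, the invariant chain that escorts class II molecules, was at 16620.0, 9385, 9976 and 11052 CPM in PTX males, against 5533, 4149.6, 5092 and 3374 CPM in vehicle males. Neither gene overlapped between the groups (log2 fold changes 1.63 ± 0.27 and 1.37 ± 0.22, adjusted p of 0.022 and 0.0213; 5 of 8 each). H2-Aa and H2-Eb1, chains of I-A and I-E, rose by log2 fold changes of 1.48 ± 0.26 and 1.52 ± 0.26 (adjusted p of 0.0274 and 0.0262; 4 and 5 of 8). For these 4 genes the highest adjusted p was 0.0867, without vehicle male 2. H2-DMb1, part of the peptide loading chaperone, was at 687, 502, 299.5 and 689 CPM in PTX males and at 266, 197, 228 and 119.7 CPM in vehicle males (log2 fold change 1.43 ± 0.34, adjusted p = 0.0363; 2 of 8, up to 0.107). Ciita, the master activator of class II genes, was at 177, 243, 25.7 and 180.5 CPM in PTX males and at 64.7, 57.5, 72.6 and 26.5 CPM in vehicle males. Its lowest PTX library lay below all vehicle libraries (adjusted p = 0.36). None of the 16 fell, and the median was 0.89. The list level was 7.05 ± 0.52 in PTX males and 6.99 ± 0.55 in vehicle males (mean log2(CPM + 1), SD, n = 4 each), with overlapping libraries.

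Of 13 class I genes all had positive values (median 0.65) and the light chain gene B2m rose (log2 fold change 0.65 ± 0.16, adjusted p = 0.0354; 2 of 8, up to 0.126). Of 9 co-stimulatory and checkpoint ligands tested, Tnfsf9, the ligand of 4-1BB on T cells, rose to 1006, 1057, 1137 and 1313 CPM in PTX males, against 706, 416, 477 and 431 CPM in vehicle males. The groups did not overlap (log2 fold change 1.15 ± 0.22, adjusted p = 0.0311; 3 of 8, up to 0.0867).

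Interferon-stimulated genes split. The RNA sensor gene Ifih1 (MDA5) was at 132, 377, 53.1 and 84.9 CPM in PTX males, against 24.0, 18.3, 20.8 and 27.9 CPM in vehicle males. Oasl1, a regulator of the antiviral factor IRF7, was at 177, 533, 54.9 and 298 CPM in PTX males, against 9.48, 16.4, 2.34 and 44.3 CPM in vehicle males. Ifit1, which binds foreign RNA caps, was at 70.3, 214, 161 and 106 CPM in PTX males, against 14.9, 3.80, 8.43 and 36.1 CPM in vehicle males. All 3 rose without overlap but varied several-fold among PTX libraries (log2 fold changes 2.83 ± 0.68, 3.87 ± 0.96 and 3.12 ± 0.80, adjusted p of 0.0355, 0.0413 and 0.047; kept in 1, 1 and 0 of 8 fits, up to 0.118 without PTX male 2, 0.118 and 0.149). Ifit3, of the same family, had 1 count in the 4 PTX libraries together and was at 18.7, 2.18, 13.9 and 11.5 CPM in vehicle males, and it fell (vehicle over PTX ratio 632, counting interval 113 to 24970; 2 of 8). Of 25 genes tested, 4 rose and 1 fell, 18 were positive and the median was 1.12, which became 0.03 under limma voom and 0.30 with the replicate number as a block. The list level was 4.15 ± 0.16 in PTX males and 4.06 ± 0.36 in vehicle males (mean log2(CPM + 1), SD, n = 4 each).

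The interferon-stimulated response element, GAAA and GAAA with any 2 bases between them on either strand, was in 11 of 20 windows (55%) of the 18 genes matched of 26, against 3.44% of all windows and 7.69% of those of genes that rose. The Cxcl10 window held 1 match and the Ifit1 window 2, in capitals, while these letters were not in the Oasl1 window.
Cxcl10, chr5:92348840-92349139, minus strand: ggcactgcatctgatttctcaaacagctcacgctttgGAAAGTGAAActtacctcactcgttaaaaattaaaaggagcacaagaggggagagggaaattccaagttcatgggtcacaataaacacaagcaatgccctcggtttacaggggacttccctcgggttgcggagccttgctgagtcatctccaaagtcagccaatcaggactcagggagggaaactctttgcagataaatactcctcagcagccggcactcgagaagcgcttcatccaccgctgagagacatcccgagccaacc
Ifit1, chr19:34640639-34640938, plus strand: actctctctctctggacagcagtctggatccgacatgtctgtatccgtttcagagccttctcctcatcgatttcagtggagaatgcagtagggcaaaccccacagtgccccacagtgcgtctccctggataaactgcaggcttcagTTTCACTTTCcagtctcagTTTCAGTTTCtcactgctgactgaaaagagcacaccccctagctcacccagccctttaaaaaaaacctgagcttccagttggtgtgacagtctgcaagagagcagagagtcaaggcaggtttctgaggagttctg

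Mast cell genes formed the list with the most rises. Tpsab1, the tryptase of mast cell granules, was at 696, 583, 478 and 789 CPM in PTX males, against 138, 118, 170.3 and 192 CPM in vehicle males. The groups were apart in all fits (log2 fold change 2.04 ± 0.26, adjusted p = 0.00672; 8 of 8). Kit, the stem cell factor receptor that mast cells need to survive, was at 560.0, 386, 194 and 429.6 CPM in PTX males, against 81.3, 93.3, 73.9 and 175 CPM in vehicle males (log2 fold change 1.89 ± 0.41, adjusted p = 0.0311; 2 of 8). Hdc, which makes histamine, was at 2014, 1073, 404 and 1250.4 CPM in PTX males, against 226, 311, 421 and 184 CPM in vehicle males. Its lowest PTX library lay within the vehicle range (log2 fold change 2.05 ± 0.46, adjusted p = 0.0311; 1 of 8). Mrgprb1, a mast cell member of the Mas-related receptors, had a log2 fold change of 2.59 ± 0.56 (adjusted p = 0.0311; 2 of 8), and the protease genes Mcpt4, Cpa3 and Tpsb2 had log2 fold changes of 1.61 ± 0.31, 1.56 ± 0.40 and 1.52 ± 0.39 (adjusted p of 0.0311, 0.0451 and 0.0457; 2, 1 and 1 of 8). The highest adjusted p over these 6 genes was 0.159, for Tpsb2 without vehicle male 3. Fcer1a, the alpha chain of the IgE receptor, did not pass (log2 fold change −0.30 ± 1.38, adjusted p = 0.999). Of 16 genes tested of 18 listed, 7 rose and 0 fell, with a median of 1.69 and 15 positive values.

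Vehicle males held the lowest mast cell level of the 3 CD45 groups. The list was at 6.85 ± 0.25 in PTX males, 5.58 ± 0.44 in vehicle males and 7.09 ± 0.05 in vehicle females (mean log2(CPM + 1), SD, n = 4 each). Against the females, sex and treatment cannot be told apart. Reads shared by Tpsab1 and Tpsb2, or by Mrgprb1 and Mrgprb2, are not counted, so the levels within these pairs are uncertain.

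Lists of other leukocytes held few rises. Of 18 macrophage genes, Cd14 and Emr1 rose and 0 fell, with a median of 0.50. Emr1, which encodes the macrophage marker F4/80, was at 790.4, 729.8, 577 and 961 CPM in PTX males, against 451, 290.5, 416 and 368 CPM in vehicle males without overlap (adjusted p = 0.0319; 2 of 8, up to 0.097). Csf1r, the receptor that sustains macrophages, was at 4523 ± 1223 CPM in PTX males and 3728 ± 306 CPM in vehicle males (SD, n = 4 each; adjusted p = 0.813). None of 9 classical monocyte, 14 T cell, 10 NK cell, 9 neutrophil, 6 B and plasma cell and 4 basophil and eosinophil genes tested passed. Cd3e, of the T cell receptor complex, was at 73.3, 51.6, 50.6 and 9.56 CPM in PTX males and at 11.8, 5.30, 7.83 and 2.44 CPM in vehicle males. Only its lowest PTX library overlapped the vehicle libraries (log2 fold change 2.75 ± 1.13, adjusted p = 0.299). S100a8, a calcium-binding protein gene of neutrophils, was at 523, 81.8, 202 and 146 CPM in PTX males and at 571, 1395, 497 and 21.7 CPM in vehicle males, with wide overlap (adjusted p = 0.767). Of 14 dendritic and Langerhans cell genes tested, 0 rose and Fscn1, the actin bundler of mature dendritic cells, fell. It had no count in any PTX library and was at 1.72, 6.87, 14.0 and 13.7 CPM in vehicle males. With a floor of 3 counts per library it was at least 40.1-fold lower.

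**Figure D5:**
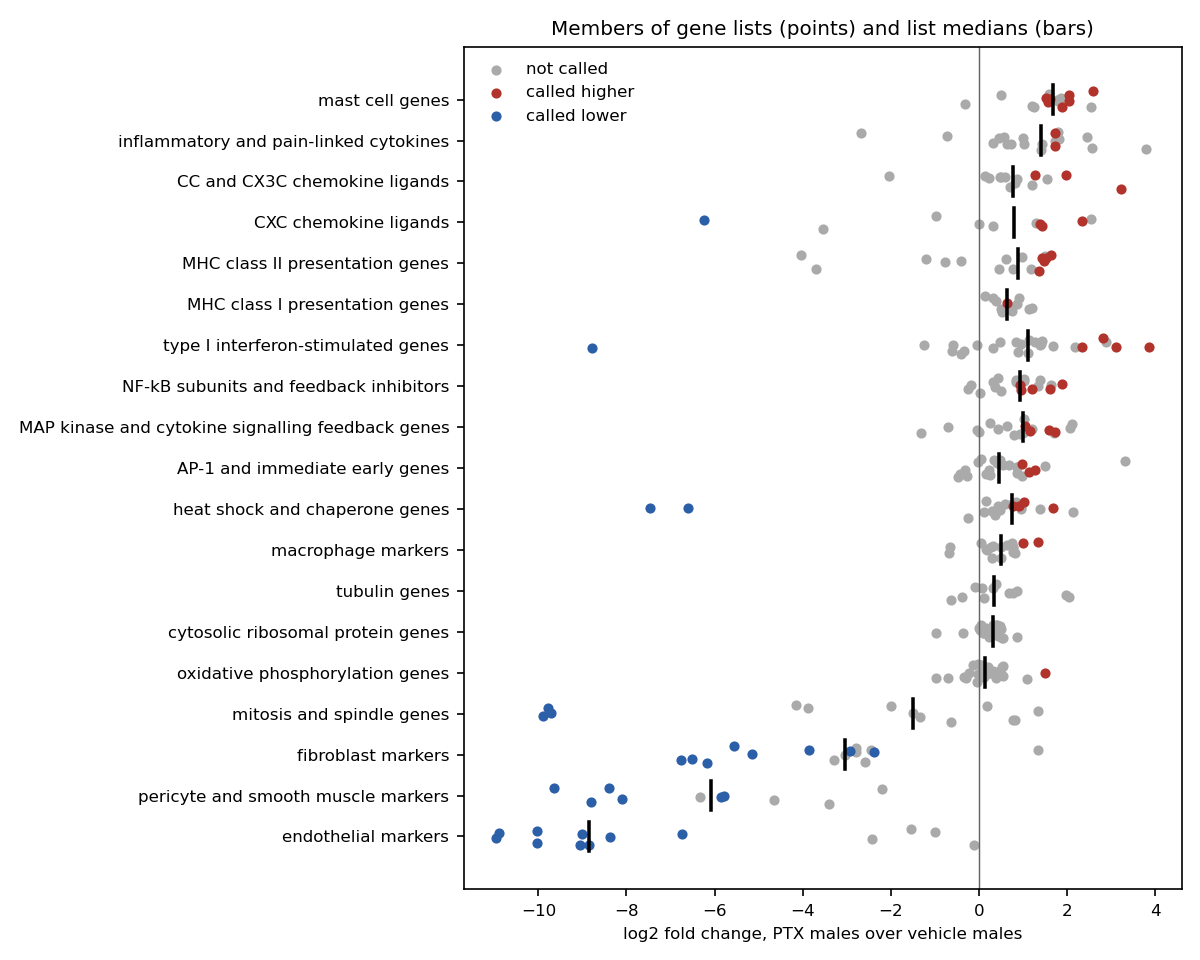
Log2 fold change (PTX males minus vehicle males) of each tested member of 19 gene lists; red points rose, blue points fell, grey points did not pass, and the black bar is the list's median. Medians run from 1.69 for mast cell genes to −8.85 for endothelial markers.

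Many fibroblast and matrix genes fell, among them abundant genes of the dermis. Dcn, the collagen-binding proteoglycan decorin, was at 82.9, 135, 427 and 42.7 CPM in PTX males, against 1657, 2054, 2375 and 3881 CPM in vehicle males (log2 fold change −3.86 ± 0.69, adjusted p = 0.0279; 3 of 8). Fbln2, the matrix glycoprotein fibulin-2, was at 5.78, 2.51, 6.07 and 2.41 CPM in PTX males, against 178, 222, 183 and 207 CPM in vehicle males. The groups were narrow and apart (log2 fold change −5.55 ± 0.57, adjusted p = 0.00512; 8 of 8). Col1a2, a chain of type I collagen, was at 83.8, 60.0, 233 and 235 CPM in PTX males, against 655, 467, 840.2 and 1248 CPM in vehicle males (log2 fold change −2.39 ± 0.51, adjusted p = 0.0311; 2 of 8). Gsn, the actin-severing protein gelsolin, was at 794, 392, 1378 and 1208 CPM in PTX males, against 5139.8, 7186, 7778 and 8723 CPM in vehicle males (log2 fold change −2.93 ± 0.37, adjusted p = 0.00672; 8 of 8). Apod, a lipid carrier of dermal fibroblasts, was at 19.9 to 68.0 CPM in PTX males and at 329 to 1065 CPM in vehicle males (log2 fold change −4.12 ± 0.51, adjusted p = 0.00672; 8 of 8). Of 15 fibroblast markers 8 fell, with a median of −3.04, and of 19 matrix genes tested 9 fell, with a median of −3.81. In either list 0 rose, although 1 fibroblast marker and 2 matrix genes had positive log2 fold changes. In 13 fibroblast markers and 15 matrix genes every PTX library lay below every vehicle library, against 10.8% of all tested genes.

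The lowest adjusted p-values of all tested genes, 0.00128, were those of 3 genes of secreted proteins, named after their values were seen. Lamb2, a laminin chain of basement membranes, was at 2.77, 1.09, 1.87 and 1.75 CPM in PTX males, against 248, 152, 186 and 308 CPM in vehicle males. Igfbp6 and Igfbp7, which bind insulin-like growth factors, had log2 fold changes of −7.03 ± 0.57 and −6.96 ± 0.57. Their PTX libraries lay far below their vehicle libraries, and all 3 genes fell in 8 of 8 fits. Other abundant genes that fell were Ccdc80, a secreted matrix protein (log2 fold change −4.11 ± 0.99, adjusted p = 0.0359; 2 of 8, up to 0.0903 without PTX male 1), and Serping1, the C1 inhibitor of complement (log2 fold change −4.01 ± 0.92, adjusted p = 0.0321; 2 of 8). Scd1, a desaturase of sebaceous and fat cells, had a log2 fold change of −2.93 ± 0.44 (adjusted p = 0.0168; 6 of 8, up to 0.0575 without vehicle male 4). Cfd, the fat cell protease adipsin, was at 0.375 to 0.871 CPM in PTX males and at 670.3, 1657, 177 and 49.2 CPM in vehicle males. It fell in 8 of 8 fits (log2 fold change −10.13 ± 1.23, adjusted p = 0.00672).

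Most endothelial genes tested fell, and the list summed to 0.00217 to 0.0199% of gene counts in PTX males, against 0.0408 to 0.168% in vehicle males. Pecam1, the endothelial adhesion molecule CD31, was at 0.237, 0, 0.300 and 0.0831 CPM in PTX males, against 31.2, 34.8, 74.6 and 204 CPM in vehicle males (log2 fold change −9.06 ± 1.52, adjusted p = 0.0233; 5 of 8). Plvap, of endothelial fenestrae, was at 0.0643 to 0.396 CPM in PTX males and at 26.6 to 182 CPM in vehicle males (log2 fold change −8.85 ± 1.33, adjusted p = 0.0149; 6 of 8). Kdr, the VEGF receptor 2, had no count in PTX males and was at 10.3, 8.37, 3.15 and 36.2 CPM in vehicle males, so it was at least 64.2-fold lower (1 of 8, up to 0.0883). Of 13 endothelial genes tested 9 fell, with a median of −8.85, or −6.74 when genes without a count are entered at their bound. Acta2, the actin of smooth muscle and pericytes, was at 1.19, 26.9, 1.35 and 0.748 CPM in PTX males, against 125, 354, 281 and 982 CPM in vehicle males (log2 fold change −5.85 ± 1.37, adjusted p = 0.0334; 2 of 8). Of 10 pericyte and smooth muscle genes tested 6 fell, with a median of −6.09.

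Some epidermal and muscle genes fell: 2 of 6 basal and 2 of 4 differentiated keratinocyte genes tested, and 3 of 8 muscle genes tested. Among all tested genes 6.17% fell, with 10.7% of those at 5 to 20 CPM and 23.1% of those under 5 CPM. Krt5, the keratin of basal keratinocytes, was at 0.150 to 0.257 CPM in PTX males and at 19.1, 114, 26.1 and 588 CPM in vehicle males, with the highest value in vehicle male 4 (log2 fold change −9.79 ± 1.43, adjusted p = 0.0147; 6 of 8, up to 0.0647 without vehicle male 4). Krt1, a keratin of suprabasal cells, had no count in PTX males and was at least 62.8-fold lower (1 of 8). Tnnc2, of fast muscle troponin, had 1 count in PTX males together and was at 112, 142, 34.8 and 3.81 CPM in vehicle males (3 of 8). Myod1, the factor that commits cells to muscle, had no count in PTX males and was at 21.2, 38.4, 6.64 and 49.3 CPM in vehicle males, at least 128-fold lower (2 of 8). The median over the muscle list was −5.75. Ngfr, which encodes the neurotrophin receptor p75 of Schwann cells, fell in its list of 5 tested genes.

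The vehicle females gave another reference for these lists. In a fit over all 12 CD45 libraries, PTX males minus vehicle females gave 28 higher (0.231%) and 185 lower (1.53%) genes of 12131 tested. The median log2 fold change was 0.99 for the 15 fibroblast markers, of which 1 was higher and 0 lower, and 0.33 for the 19 matrix genes, of which none passed. Dcn averaged 117 CPM and Col1a2 18.3 CPM in vehicle females. Endothelial markers were lower than in vehicle females as well (16 tested, 4 lower, median −7.29), with Pecam1 at 40.2 and Cldn5, of endothelial tight junctions, at 32.7 CPM in vehicle females. Pericyte and smooth muscle genes had a median of −4.47 (12 tested, 1 lower), and basal keratinocyte, differentiated keratinocyte and muscle lists had medians of −4.10, −3.25 and −3.06, with no gene past the test. Sex and treatment cannot be told apart here.

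Genes of the drug's own target did not pass the test. Of 12 tubulin genes tested none passed (median 0.35), and Tubb5, the main beta tubulin of many cells, was at 766, 567, 588 and 966 CPM in PTX males and at 795, 675, 675 and 604 CPM in vehicle males (log2 fold change 0.07 ± 0.22, adjusted p = 0.999). Of 13 microtubule-associated and stathmin genes tested, Stmn2, which is typical of neurons, fell. Of 13 mitosis and spindle genes tested, Aurkb, Kif20a and Cenpf fell, while 6.17% of all tested genes and 23.1% of those under 5 CPM did so. All 3 had no count in PTX males and were low in vehicle males, where Aurkb, the Aurora B kinase, was at 11.2, 7.26, 9.03 and 1.56 CPM, so that it was at least 32.1-fold lower in PTX males. Among 16 p53 targets tested, Gdf15, a stress cytokine that curbs appetite, was at 69.3, 469, 696 and 567 CPM in PTX males and at 75.4, 95.2, 92.3 and 92.6 CPM in vehicle males. It rose, although PTX male 1 lay below the vehicle range (log2 fold change 2.34 ± 0.57, adjusted p = 0.0376; 1 of 8, up to 0.107). Phlda3, an inhibitor of AKT signalling, fell. The cell cycle inhibitor Cdkn1a was at 1228 ± 246 CPM in PTX males and 985 ± 241 CPM in vehicle males (SD, n = 4 each; adjusted p = 0.815). Of 20 apoptosis regulators, Casp8, the initiator caspase of death receptors, rose (log2 fold change 1.74 ± 0.42, adjusted p = 0.0355; 2 of 8, up to 0.123).

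In metabolic and housekeeping lists, the share of genes that passed was near or under the 6.95% of all tested genes. Of 18 oxidative stress and iron genes tested, Fth1, the ferritin heavy chain that stores iron, was at 8251, 6833, 8453 and 8591 CPM in PTX males, against 5327, 5429.6, 4664 and 4405 CPM in vehicle males, and it rose without overlap (log2 fold change 0.70 ± 0.14, adjusted p = 0.0311; 3 of 8). Hmox1, the heme-degrading oxygenase, was at 1489.8, 5227, 5961 and 11514 CPM in PTX males and at 1769.8, 3761, 2614 and 3797 CPM in vehicle males, with overlap (log2 fold change 1.02 ± 0.50, adjusted p = 0.472). Of 25 oxidative phosphorylation genes, Uqcrc2, a core subunit of complex III, rose (log2 fold change 1.51 ± 0.32, adjusted p = 0.0311; 3 of 8, up to 0.088). None passed among 27 ribosomal protein, 19 glycolysis and hypoxia, 22 lysosome and phagocytosis and 15 leukocyte integrin genes tested, with medians of 0.32, 0.34, 0.34 and 0.38. Of 18 complement genes, Serping1 fell, and of 17 prostaglandin and leukotriene genes tested, the prostaglandin E receptor gene Ptger3 fell, with 0 rises in either list (medians 0.14 and 0.20).

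Other genes with large rises belonged to no list. Clec4a1, a C-type lectin receptor gene of myeloid cells, was at 317, 498, 344 and 497 CPM in PTX males, against 119, 161, 143 and 134 CPM in vehicle males, with no overlap (log2 fold change 1.57 ± 0.26, adjusted p = 0.0213; 5 of 8). Pik3r6, a regulatory subunit of PI3K-gamma, was at 284, 139, 99.7 and 476 CPM in PTX males, against 33.6, 24.2, 52.5 and 64.7 CPM in vehicle males (log2 fold change 2.51 ± 0.57, adjusted p = 0.0316; 1 of 8). Cyp11a1, which starts steroid synthesis from cholesterol, was at 413, 203, 227 and 298 CPM in PTX males, against 66.8, 35.8, 18.6 and 123 CPM in vehicle males. Its groups were apart, but none of the 8 fits kept the call (log2 fold change 2.23 ± 0.57, adjusted p = 0.0461, up to 0.136). Sltm and Zfp62 rose by log2 fold changes of 2.26 ± 0.51 and 2.09 ± 0.50 (adjusted p of 0.0314 and 0.0342; 1 of 8 each).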

How the data were processed

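Cells of mouse hind paw skin were sorted by CD45, and, per the labels' protocols, their RNA was made into stranded TruSeq mRNA libraries and sequenced from 1 end over 50 bases. The authors demultiplexed reads with bcl2fastq, aligned them to mm9 with TopHat2 and assigned them to genes with HTSeq, according to the submitters' processing notes, and the deposited values are raw whole-number read counts per gene symbol. The sources used here give no version, annotation or strand setting. Of all reads, 39 to 46% were counted in genes, 42.2 to 47.8% had no unique place and 10.4 to 16.3% lay in no gene; only those in genes entered library sizes and tests. Levels of genes with near-identical copies are therefore uncertain.

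Groups came from the labels. The 8 male CD45 libraries were fitted with edgeR 4.0.16 in R 4.3.3, using filterByExpr, TMM and robust glmQLFit (two-sided quasi-likelihood F-test, Benjamini-Hochberg threshold 0.05). CPM are TMM-scaled, over the 8 libraries of the fit for genes in males and over all 12 CD45 libraries for vehicle females and list levels. List levels are means of log2(CPM + 1) with a pseudocount of 1. Log2 fold changes are PTX males minus vehicle males, ± SE from the fit. A gene without a count in PTX males has a bound in place of a fold, set by taking 3 counts in each library as the floor, and intervals (95%, exact) and floors cover counting error only. The common biological coefficient of variation was 1.27. No set test was made. Promoter sequences are those of RefSeq (GRCm38.p6); no other coordinates are given, because the counts used mm9.

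The members, the 50 gene lists (825 of 841 entries found) and the alternatives were chosen with earlier results of these data known. Named were, per direction, the 12 largest changes among genes without overlap that reached 5 CPM in the higher group, the 8 most abundant, the 10 lowest p-values among rises of genes most abundant in CD45 libraries, and up to 4 members of a list that passed, or 2 others. Further list members are given for their known role, and were picked after their values were seen, as was the description by level and detection. Alternatives were RLE scaling, TMM over genes most abundant in CD45 libraries, no filter on low counts, DESeq2 1.42.0, limma 3.58.1 voom with quality weights, all 12 CD45 libraries in 1 fit, the replicate number as a block, plain CPM for the gene classes, and leaving out each library.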

Additional observations from a re-analysis of the deposited data

Results flagged for a closer look

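For the named genes, the highest or lowest library of a group was set against the rest of its group by Dixon's criterion for 4 values at the 95% level. It picked out 17 of 209 groups (8.13%). The usual rate of about 1 in 20 holds for independent, normally distributed values, which CPM of these chosen genes need not be. No excess of outliers can therefore be read from this share. In PTX males, Acta2 was at 26.87 CPM in replicate 2, against 0.7482 to 1.349 CPM in the others. Ccdc80 was at 151.6 CPM in PTX male 4 (others 6.62 to 17.89), Serping1 at 127.2 CPM in PTX male 3 (others 5.849 to 23.5) and Sltm at 388 CPM in PTX male 1 (others 127.2 to 171). H2-Eb1 was at 9953 CPM in PTX male 1 (others 5223 to 5421), and Hspa8 was low in PTX male 2 at 368.4 CPM (others 528 to 559.1).

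In vehicle males, 9 of the 11 values were the highest of their group and came from replicate 4. They included genes of several cell types. Of epidermal keratins, Krt5 was at 588.3 CPM (others 19.07 to 114.4), Krt15 at 195 CPM (others 2.113 to 10.06) and Krt1 at 41.85 CPM (others 2.791 to 7.615). Of vessel genes, Pdgfrb was at 193.9 CPM (others 37.79 to 59.13) and Cdh5 at 21.17 CPM (others 3.342 to 4.465). Of mast cell protease genes, Cpa3 was at 649.2 CPM (others 221.8 to 284.9), Mcpt4 at 461.6 CPM (others 230.8 to 262.3) and Tpsb2 at 547.1 CPM (others 273.1 to 309.4). Klf6 was at 1289 CPM (others 1011 to 1040). Low values stood out in vehicle male 1, where Gdf15 was at 75.39 CPM (others 92.31 to 95.22) and Hsp90aa1 at 149.9 CPM (others 255.9 to 270.8).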

How the results depend on the processing

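The counts of genes that passed depended on the processing. The 123 genes followed through 15 alternatives had passed, except for the markers of the sort Ptprc, Lyz2 and Cd68. None of the 123 reversed in any alternative, and Ccl4, Nr4a1, Tnfaip3 and Tpsab1 passed in all 15. RLE scaling gave 112 rises and 660 falls, and all 12 CD45 libraries in 1 fit gave 116 and 553. TMM over genes most abundant in CD45 libraries gave 26 rises and 691 falls. Without a filter on low counts 107 genes passed (30 rises, 77 falls), with DESeq2 2046 (242 and 1804), and with limma voom and quality weights 13 (13 and 0, with 2077 genes at an unadjusted p under 0.05). Leaving out 1 library gave 18 to 1034 genes, 4 to 110 rises and 14 to 970 falls, and a difference in detected genes of −4922.9 to −3992.6 (−4409 at a limit of 1 CPM). The cause of these shifts was not tested.

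With the replicate number as a block, 38 genes passed (15 rises, 23 falls). Libraries with the same number were correlated at −0.017 to 0.048 in their deviations from group means. Many genes were not counted in PTX libraries, so these values cannot show whether the numbers pair the libraries. With plain CPM for the classes, CD45, fibroblast and keratinocyte genes made up 78.8, 15.3 and 5.88% of rises and 26.7, 43.1 and 30.2% of falls. Against vehicle females, list medians were 0.99 for fibroblast, 0.33 for matrix, −7.29 for endothelial, −4.47 for pericyte and smooth muscle, −3.25 for differentiated keratinocyte, −3.06 for muscle and −0.47 for Schwann cell and melanocyte genes.

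Medians of the complement (−0.13), cytokine receptor (−0.09), oxidative phosphorylation (−0.12), prostaglandin (−0.09) and unfolded protein response (−0.04) lists were negative under CD45-class scaling, which shifted the median of all genes to −0.13; voom and the block shifted it to −1.09 and −0.92. Further list medians that were positive turned negative under voom: NK cell (−1.28), Toll-like and C-type lectin (−0.84), classical monocyte (−0.60), chemokine receptor (−0.21), co-stimulation (−0.19), inflammasome (−0.08), tubulin (−0.06), oxidative stress (−0.06) and ribosomal (−0.01). With the block, those of the Toll-like and C-type lectin (−0.50), co-stimulation (−0.19), oxidative stress (−0.18), inflammasome (−0.06), tubulin (−0.04) and NK cell (−0.02) lists did so. The complement and prostaglandin lists were negative under both as well, and oxidative phosphorylation under voom. Medians of the NF-κB, MHC class II, mast cell, chemokine, cytokine, heat shock and feedback lists stayed positive, and those of the fibroblast, matrix, vessel, keratinocyte and muscle lists negative, in every alternative that kept all 8 male libraries. Genes up to 100 CPM were often not counted in PTX libraries, which limits how far falls at these levels can be read.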

Other observations

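Some genes that rose with PTX belonged to no list and were not reached by the naming rule; they were chosen after their values were seen. Cd83, a glycoprotein of activated dendritic cells and macrophages, was at 3708, 2851, 3284 and 3956 CPM in PTX males, against 1857, 1895, 1522 and 1247 CPM in vehicle males (log2 fold change 1.08 ± 0.18, edgeR adjusted p = 0.0241). Mgl2, a galactose-binding lectin of dermal macrophages and dendritic cells, averaged 711 ± 176 CPM in PTX males and 254 ± 68.5 CPM in vehicle males (SD, n = 4 each; log2 fold change 1.49 ± 0.29, edgeR adjusted p = 0.0311). Cd209d, of the DC-SIGN lectin family, averaged 249 ± 27.1 CPM in PTX males and 106 ± 25.6 CPM in vehicle males (SD, n = 4 each; log2 fold change 1.23 ± 0.30, edgeR adjusted p = 0.036). In all 3 genes every PTX library lay above every vehicle library.

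Gpr183, which guides leukocytes along oxysterols, had a log2 fold change of 1.57 ± 0.29, and Slamf7, an activating receptor of lymphoid and myeloid cells, one of 1.85 ± 0.41 (edgeR adjusted p = 0.0311 for both). Nfe2l2, the transcription factor NRF2 of the antioxidant response, had a log2 fold change of 1.19 ± 0.23, and Trex1, a nuclease that clears cytosolic DNA, one of 1.26 ± 0.25 (edgeR adjusted p = 0.0311 for both). None of these 4 genes overlapped between the groups. Each of the 7 genes lost its call in at least 1 of the 8 fits that left out a library.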
